A study of Bos taurus with 6 samples.

Results

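The 10 genes described here encode 4 cyclin-dependent kinases (CDK1, CDK2, CDK4 and CDK6) and 6 cyclins (CCNA2, CCNB1, CCND1, CCND2, CCNE1 and CCNE2). They were chosen by name as core cyclins and kinases of the cell cycle, and each was read from the row that carries its symbol after the prefix "gene-". All 10 were found among the 23475 genes listed. All 10 also passed the filter on low values, a mean FPKM of 0.5 or more, which left 12422 genes for testing. FPKM counts sequenced fragments scaled to the length of the transcript and to all mapped fragments of the library. It is a level per length, so levels of different genes can be set side by side.

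A cyclin-dependent kinase phosphorylates its substrates only when bound to a cyclin, and the cyclins are made and destroyed at set points of the cycle. In G1 the D-type cyclins bind CDK4 and CDK6 and begin the phosphorylation of the retinoblastoma protein, which frees E2F transcription factors. The E-type cyclins then bind CDK2 at the entry into S phase, cyclin A2 follows with CDK2 and later CDK1, and cyclin B1 with CDK1 drives mitosis. Preadipocytes, the fibroblast-like precursors of fat cells, multiply before they leave the cycle and fill with lipid.

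The cells came from subcutaneous fat of 3 premature calves and were kept in high-glucose DMEM with fetal bovine serum. They were transfected with bta-miR-484 agomir, a chemically modified double-stranded RNA that acts as the mature microRNA, or with agomir NC, its negative control, and RNA was taken after 48 h. Each group had 3 RNA-seq libraries, named here by group and replicate number. The comparison asks how the level of each cyclin and kinase mRNA differed between cells given the microRNA and cells given the control. How the replicates map to these animals or to separate cultures is not given in the sources used here, so p-values measure only the spread between these libraries, which may be technical.

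The labels call the cells adipocytes, and the study's methods use both adipocytes and preadipocytes for them. Of the 11 preadipocyte and fibroblast markers, 10 were tested, and the list summed to between 28598 and 29902 FPKM in each library, led by COL3A1 at a mean of 7623 FPKM, with DLK1 listed at 0 in every library. The 8 markers of mature adipocytes summed to between 11.0 and 12.6 FPKM. The most abundant of them was LPL, at a mean of 3.73 FPKM, and ADIPOQ was at most 0.197 FPKM, LEP at most 0.0368 FPKM and CIDEC at most 0.230 FPKM. PPARG had a mean of 3.55 FPKM, FABP4 of 2.39 FPKM, PLIN1 of 1.23 FPKM and CEBPA of 0.535 FPKM. ADIPOQ, LEP and CIDEC were thus near 0 while other markers of the list were present at low levels, and the libraries are called by their treatment here. Of the 10 preadipocyte and 5 mature adipocyte markers tested, 3 passed an unadjusted p under 0.05 in limma, as did 10.9% of all genes tested, and 0 passed the adjusted threshold: FABP4 was lower with the agomir (log2 fold change -0.49, adjusted p = 0.363), PPARG was higher (0.23, adjusted p = 0.407) and DCN, a fibroblast marker, was lower (-0.12, adjusted p = 0.376). Their part in the values of the cyclins and kinases was not tested. Markers of pericytes and smooth muscle summed to between 467 and 513 FPKM, nearly all from TAGLN and ACTA2, which cultured fibroblasts also express, and RGS5 was at most 0.0816 FPKM. Endothelial markers summed to at most 3.97 FPKM (mostly VWF), leukocyte and macrophage markers to at most 7.75 FPKM (mostly CD14), skeletal muscle markers to at most 0.479 FPKM (mostly DES, with MYOD1 and MYOG listed at 0) and epithelial markers to at most 0.379 FPKM (led by EPCAM, with KRT18 listed at 0).

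Summed over genes, a library held between 365977 and 379361 FPKM, with 16207 to 16360 genes above 0. Correlation of the log2 values across genes lay between 0.9928 and 0.9937 for libraries of the same group and between 0.9912 and 0.9930 for libraries of different groups. Numbers of reads could not be recovered from the FPKM values, so sequencing depth is unknown and no counting interval is given.

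CDK4 and CCND1 were at the top of the level scale and the E-type cyclins at the bottom, with CCND2 and CDK6 in the middle. CDK4 had a mean of 37.3 FPKM over the 6 libraries, above 87.2% of the genes tested, and CCND1 followed with 31.8 FPKM. Their order was not the same throughout, since CDK4 was above CCND1 in 5 of 6 libraries. CCNB1 stood next at 14.9 FPKM, apart from CCND1 by a ratio of 2.14 in the means with no overlap of the ranges. CCND2 (10.7 FPKM), CDK1 (10.5 FPKM) and CDK6 (9.49 FPKM) formed a close group. CCND2 was above CDK1 in 3 of 6 libraries, and their ranges overlapped. CDK1 was above CDK6 in 5 of 6 libraries, with no overlap in the controls (10.2 to 11.8 against 8.42 to 8.75 FPKM), while in the agomir group the ranges overlapped and the mean of CDK6 (10.4 FPKM) was above that of CDK1 (9.92 FPKM). CCNA2 (7.34 FPKM) was below CDK6 in 6 of 6 libraries although the ranges overlapped, and CDK2 (4.88 FPKM) was below CCNA2 with no overlap. CCNE2 (1.92 FPKM) was lower than CDK2 by a ratio of 2.54 in the means. CCNE1 (1.501 FPKM) was the lowest of the 10, below CCNE2 within each of the 6 libraries, and only 13.4% of the genes tested had a lower mean.

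**Figure D1:**
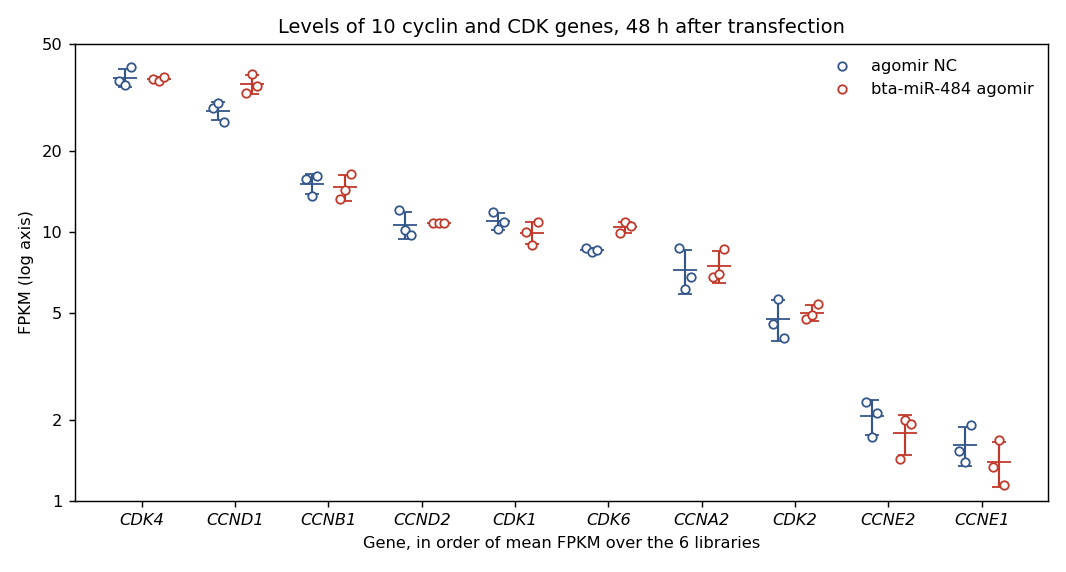
FPKM on a log axis for the 10 genes in order of their mean over the 6 libraries; each circle is a library, the horizontal line the mean and the bar 1 SD of the 3 libraries of a group. The agomir circles lie above all agomir NC circles for CCND1 (32.9 to 38.6 against 25.7 to 30.1 FPKM) and CDK6 (9.87 to 10.9 against 8.42 to 8.75 FPKM), and the circles of the other 8 genes overlap.

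CCND1 and CDK6, which act together in G1, were higher with the agomir, and the other 8 genes did not pass an unadjusted p under 0.05. These 2 of 10 genes stand against 10.9% of all 12422 genes tested that passed the same threshold in limma, 6.63% higher and 4.31% lower with the agomir. Of the 10 genes, 2 were higher and 0 lower, and of all genes 824 were higher and 535 lower, or 657 and 706 after median-ratio scaling of the libraries. No member passed an adjusted p under 0.05 (Benjamini-Hochberg over all genes tested), which 0.00805% of the genes did, namely 1 gene, TRAPPC4, named here after its values were seen. The groups did not overlap for 2 of the 10 genes, against 17.2% of all genes tested. Among 10 genes, counts of 2 lie close to these background shares and are not a result about the genes as a set. The unadjusted p of the other 8 genes in limma lay between 0.124 for CDK1 and 0.798 for CDK4, and their adjusted p between 0.584 and 0.952. Over all 10 genes, log2 fold changes were above 0 for 5 and below 0 for 5, with a median of 0.0054 against 0.013 over all genes. The median of the 10 genes was -0.052 without agomir NC replicate 2 (3 above 0 and 7 below) and 0.024 without agomir replicate 1. After median-ratio scaling it was -0.011, against -0.0020 over all genes. Fold changes are differences of means of log2(FPKM + 0.5), a scale that understates the change of low genes such as CCNE1 and CCNE2. In bulk RNA, fewer cells in a phase of the cycle and less of an mRNA per cell cannot be told apart.

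CCND1 encodes cyclin D1, the D-type cyclin whose synthesis answers growth factors. Its level was 32.9, 38.6 and 34.8 FPKM in agomir replicates 1 to 3 and 29.0, 30.1 and 25.7 FPKM in agomir NC replicates 1 to 3. Each agomir library was above each control library, and agomir NC replicate 3 was the lowest of the 6. The means were 35.4 ± 2.91 and 28.3 ± 2.28 FPKM (SD, n = 3 per group), and their ratio was 1.25. The difference, agomir minus agomir NC, was 0.32 on the log2 scale (SE 0.075, 95% interval 0.15 to 0.49), with unadjusted p = 0.00178 and adjusted p = 0.252 in limma. Ordered by p it was gene 88 of the 12422. An exact permutation test, two-sided, returned p = 0.1, which is the lowest that 3 libraries against 3 allow.

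CDK6 encodes a kinase partner of the D-type cyclins. The agomir replicates stood at 9.87, 10.9 and 10.5 FPKM and the agomir NC replicates at 8.75, 8.42 and 8.53 FPKM. The controls lay within a narrow band and all agomir libraries were above it. The means were 10.4 ± 0.497 and 8.57 ± 0.168 FPKM (SD, n = 3 per group). Its log2 fold change was 0.27 (SE 0.065, 95% interval 0.12 to 0.41), with unadjusted p = 0.00229 and adjusted p = 0.257 in limma. It ranked 109 by p, and its exact permutation test also gave p = 0.1.

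CCND2 encodes cyclin D2, which binds the same kinases as cyclin D1. Levels after the agomir were 10.76, 10.83 and 10.78 FPKM, against 12.05, 10.1 and 9.71 FPKM after agomir NC. The agomir libraries were nearly equal, with an SD of 0.0350 FPKM against 1.25 FPKM in the controls, and they lay inside the range of the controls. In limma the log2 fold change came to 0.026 (95% interval -0.16 to 0.21) and was -0.0013 after quantile normalization.

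CDK4 encodes the other kinase partner of the D-type cyclins. With agomir NC its libraries gave 36.4, 35.3 and 40.9 FPKM, and with the agomir 37.0, 36.4 and 37.7 FPKM. The lowest and the highest library were both controls, so the agomir values lay between them. The log2 fold change was -0.016 (95% interval -0.15 to 0.12, a fold of 0.902 to 1.09), the narrowest interval of the 10 genes.

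Expressed as shares, the same values describe the make-up of the G1 pairs. CCND1 made up 56.9%, 61.5% and 57.8% of the summed FPKM of CCND1, CCND2 and CCND3 in the agomir libraries and 50.5%, 54.6% and 49.9% in the control libraries. The groups did not overlap in this share, and in the controls CCND1 mRNA was about as abundant as that of CCND2 and CCND3 combined. The sum of the D-type cyclins was 57.8, 62.8 and 60.2 FPKM with the agomir and 57.4, 55.1 and 51.5 FPKM in the controls. The sums did not overlap either, although agomir replicate 1 and agomir NC replicate 1 were close. CDK6 made up 21.1%, 23.0% and 21.8% of the summed FPKM of CDK4 and CDK6 in the agomir libraries and 19.4%, 19.3% and 17.3% in the control libraries. CDK4 thus supplied most of the G1 kinase mRNA in all libraries. The sum of CDK4 and CDK6 was between 46.8 and 48.2 FPKM with the agomir and between 43.7 and 49.4 FPKM in the controls, which overlapped. No p is given for these shares and sums, which rest on genes chosen with results known.

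**Figure D2:**
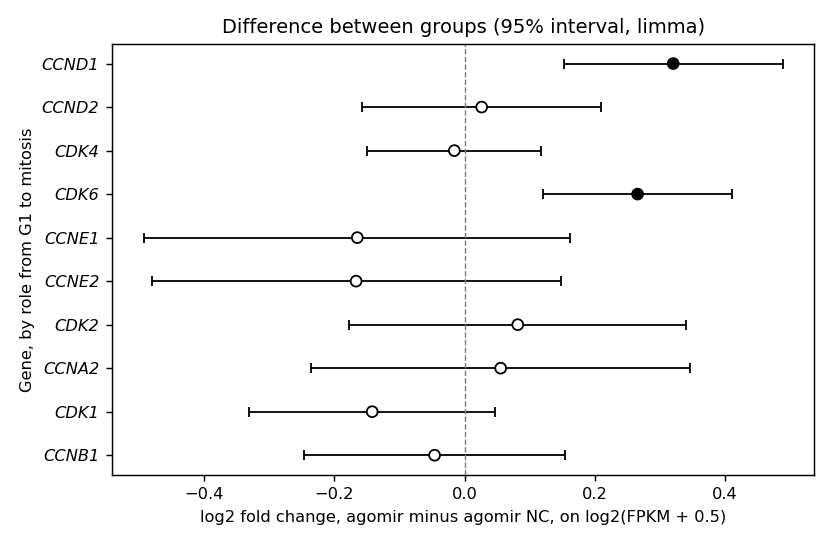
Difference between the groups in log2(FPKM + 0.5), agomir minus agomir NC, for the 10 genes in order of role from G1 to mitosis; circles are limma estimates, bars 95% intervals, and filled circles mark an unadjusted p under 0.05. The intervals of CCND1 (0.15 to 0.49) and CDK6 (0.12 to 0.41) lie above 0, and the intervals of the other 8 genes include 0.

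CCNE1 encodes cyclin E1, a partner of CDK2 at the start of S phase. Agomir replicates 1 to 3 measured 1.34, 1.68 and 1.15 FPKM, and the 3 controls measured 1.54, 1.40 and 1.91 FPKM. The lowest library was agomir replicate 3 and the highest agomir NC replicate 3, and the rest were mixed. This gave a log2 fold change of -0.16 (95% interval -0.49 to 0.16), which was -0.27 without agomir replicate 2, -0.072 without agomir replicate 3 and -0.068 without agomir NC replicate 3.

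CCNE2 encodes cyclin E2, the second E-type cyclin. The agomir replicates stood at 1.43, 1.99 and 1.93 FPKM and the agomir NC replicates at 2.33, 1.73 and 2.12 FPKM. The groups overlapped through agomir NC replicate 2, which was below agomir replicates 2 and 3. The difference, agomir minus agomir NC, was -0.17 on the log2 scale (95% interval -0.48 to 0.15), and in fold the interval ran from 0.716 to 1.11. It was -0.051 without agomir replicate 1, -0.092 without agomir NC replicate 1 and -0.26 without agomir NC replicate 2. A p that misses the threshold does not show that levels were equal, and for the E-type cyclins the intervals were the widest of the 10 genes. Their sum was 2.77, 3.67 and 3.08 FPKM with the agomir and 3.87, 3.13 and 4.03 FPKM in the controls, with overlap.

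CDK2 encodes the kinase of the E- and A-type cyclins, and the study also measured its mRNA by qPCR. Levels after the agomir were 4.75, 4.90 and 5.40 FPKM, against 4.55, 5.65 and 4.04 FPKM after agomir NC. The agomir libraries lay inside the range of the controls, whose SD of 0.826 FPKM was above the 0.341 FPKM of the agomir libraries. The means were 5.01 and 4.75 FPKM, and the log2 fold change was 0.082 (SE 0.12, 95% interval -0.18 to 0.34), with unadjusted p = 0.496 and adjusted p = 0.838 in limma. In fold the interval ran from 0.884 to 1.27. The lower CDK2 mRNA of the study's qPCR was thus not seen in these FPKM values, although the interval includes a small decrease. The exact permutation test gave p = 0.7.

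The qPCR primers of CDK2 are shown because they define the stretch of this mRNA that the study's own assay read, whereas FPKM is taken over the whole transcript. Those of PCNA, the sliding clamp of DNA polymerase, are shown beside them as the other cell cycle gene with such an assay. By qPCR the study reported the mRNA of both CDK2 and PCNA as lower with the agomir. The sequences are from the study's primer list, each written 5′ to 3′, and their positions in the transcripts were not analysed here.
CDK2 forward: tttgctgagatggtgacccg
CDK2 reverse: taactcctggccaaaccacc
PCNA forward: tccagaacaagagtatagc
PCNA reverse: tacaacagcatctccaat
The CDK2 primers are 20 bases each with 55% G and C, and the PCNA primers are 19 and 18 bases with 42.1% and 38.9% G and C.

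CCNA2 encodes cyclin A2, which acts in S phase and up to early mitosis. With agomir NC its libraries gave 8.72, 6.12 and 6.78 FPKM, and with the agomir 6.82, 6.95 and 8.63 FPKM. In each group a single library stood above the rest, agomir replicate 3 and agomir NC replicate 1. Its log2 fold change was 0.056 (95% interval -0.24 to 0.35).

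CDK1 encodes the kinase of mitosis. Agomir replicates 1 to 3 measured 9.97, 8.96 and 10.8 FPKM, and the 3 controls measured 11.8, 10.2 and 10.9 FPKM. Agomir replicate 3 lay among the controls, and the other agomir libraries were below all of them. The means were 9.92 ± 0.942 and 11.0 ± 0.810 FPKM (SD, n = 3 per group). In limma the log2 fold change came to -0.14 (SE 0.084, 95% interval -0.33 to 0.047), with unadjusted p = 0.124 and adjusted p = 0.584, and the exact permutation test gave p = 0.2. Without agomir replicate 3 the log2 fold change was -0.20 with unadjusted p = 0.0467, and without agomir replicate 2 it was -0.074. Over all alternatives the adjusted p of CDK1 lay between 0.530 and 0.870.

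CCNB1 encodes cyclin B1, the partner of CDK1 in mitosis. The agomir replicates stood at 13.3, 14.3 and 16.4 FPKM and the agomir NC replicates at 15.7, 13.6 and 16.1 FPKM. The lowest and the highest library were both agomir libraries, so the controls lay between them. The log2 fold change was -0.046 (95% interval -0.25 to 0.15). CDK1, CCNA2 and CCNB1 together summed to 30.1, 30.2 and 35.9 FPKM with the agomir and to 36.2, 30.0 and 33.7 FPKM in the controls. In this sum agomir replicate 3 and agomir NC replicate 1 were high and the groups overlapped.

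For 5 of the 10 genes (CDK2, CDK4, CCNA2, CCNB1 and CCND2) the sign of the log2 fold change turned when a single library was left out. Agomir NC replicate 1 was the highest library for 4 of the 10 genes (CCND2, CDK1, CCNA2 and CCNE2) and for 11 of 20 proliferation genes of S and M phase. The summed level of those 20 genes was 176, 193 and 192 FPKM in the agomir libraries and 211, 179.9 and 192 FPKM in the controls, led by TYMS. Agomir NC replicate 1 was thus the highest and agomir replicate 1 the lowest library in this sum. Without agomir NC replicate 1 the log2 fold change was -0.089 for CDK1, 0.19 for CCNA2, 0.34 for CCND1 and 0.28 for CDK6. The median of the 20 proliferation genes was -0.042 with all libraries, 0.033 without agomir NC replicate 1 and 0.0076 without agomir replicate 1. The values of CCND1 and CDK6 were thus similar without agomir NC replicate 1, and the sign of the proliferation median turned without either of these libraries.

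The other genes of the cell cycle were described by 8 lists, chosen by function. Of their 105 genes tested, 4 were higher and 6 lower at an unadjusted p under 0.05, which is 9.52% of them against 10.9% of all genes tested, and 0 passed the adjusted threshold in limma. Their median log2 fold change was 0.0084, and the groups did not overlap for 11 of the 105 genes, against 17.2% of all genes tested. The lists are given as levels around the 10 genes and not as a set that moved.

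Among the other cyclins of the cell cycle, 6 of 8 were tested, 0 were higher and 2 were lower, CCND3 and CCNB2, with a median log2 fold change of -0.021 over the list. That median was 0.0056 without agomir replicate 1, -0.089 without agomir NC replicate 1 and 0.025 with no filter on low values. CCND3, cyclin D3, was measured at 14.2, 13.3 and 14.6 FPKM in agomir replicates 1 to 3, against 16.4, 14.9 and 16.1 FPKM in the controls. All agomir libraries were below all controls, the opposite order to CCND1. This gave a log2 fold change of -0.16 (SE 0.063), with unadjusted p = 0.0285 and adjusted p = 0.402 in limma. It no longer passed without agomir replicate 1 or 2 or agomir NC replicate 1 or 3, with p up to 0.1001. CCNB2, cyclin B2, was at 7.60, 6.67 and 6.63 FPKM after the agomir and 8.51, 7.52 and 8.56 FPKM after agomir NC. The groups overlapped only between agomir replicate 1 and agomir NC replicate 2. The difference, agomir minus agomir NC, was -0.22 on the log2 scale (SE 0.083), with unadjusted p = 0.0247 and adjusted p = 0.396 in limma. Without agomir replicate 2 or 3 or agomir NC replicate 1 or 3, it did not pass, with p up to 0.0808. Both cyclins were thus lower by unadjusted p while CCND1 was higher and CCNB1 did not pass. CCNG1, whose transcription p53 activates, was the most abundant of this list at a mean of 156 FPKM, and CCNO was listed at 0.

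Of the 13 transcriptional and other cyclins, all tested, 0 were higher and 1 was lower, CCNY, a membrane-bound cyclin, and the median of the list was 0.027. Without agomir NC replicate 2 that median was -0.0090, over the 12 genes then tested. CCNY was measured at 25.1, 26.04 and 25.7 FPKM in agomir replicates 1 to 3, against 30.2, 28.3 and 26.8 FPKM in the controls. The groups did not overlap. Its log2 fold change was -0.15 (SE 0.055), with unadjusted p = 0.0248 and adjusted p = 0.396 in limma. It did not pass with no variance trend, or without agomir replicate 1 or 3 or agomir NC replicate 1, with p up to 0.0976. None of the 15 other cyclin-dependent kinases tested passed in limma, and their log2 fold changes lay between -0.073 and 0.33 with a median of 0.061. The most abundant of them was CDK9, the kinase that releases paused RNA polymerase II, at a mean of 32.8 FPKM.

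Of 9 kinases, phosphatases and adaptors that act on cyclin-dependent kinases, 1 was higher, CDC25C, a phosphatase that removes inhibitory phosphates from CDK1, and the median log2 fold change was 0.034. The agomir replicates stood at 2.16, 2.65 and 2.85 FPKM and the agomir NC replicates at 1.94, 1.98 and 1.91 FPKM. All agomir libraries were above the controls, which were nearly equal. In limma the log2 fold change came to 0.31 (SE 0.11), with unadjusted p = 0.0216 and adjusted p = 0.383. It did not pass without agomir replicate 2 or 3, with p up to 0.0906.

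Of the 7 inhibitors of cyclin-dependent kinases, 1 was higher, CDKN2B, which encodes p15, an inhibitor of CDK4 and CDK6, and the median log2 fold change was 0.012. That median was -0.028 without agomir replicate 3 and 0.037 without agomir replicate 1. Levels of CDKN2B after the agomir were 11.9, 15.6 and 15.4 FPKM, against 11.7, 9.97 and 12.3 FPKM after agomir NC. Agomir replicate 1 lay among the controls and the other agomir libraries were above them. The log2 fold change was 0.32 (SE 0.11), with unadjusted p = 0.0172 and adjusted p = 0.366 in limma. It did not pass without agomir replicate 2 or 3 or agomir NC replicate 2, with p up to 0.0687. CDKN1A, which encodes p21, was the most abundant inhibitor, with 83.8, 79.4 and 81.8 FPKM after the agomir and 79.6, 83.4 and 79.9 FPKM after agomir NC. Its groups shared nearly the same range, above the level of each of the 10 genes, and its log2 fold change was 0.012 (95% interval -0.083 to 0.11) and -0.0045 after median-ratio scaling. CDKN1B, which encodes p27, was between 5.75 and 7.49 FPKM with the agomir and between 5.10 and 6.67 FPKM in the controls, with a log2 fold change of 0.11 (95% interval -0.15 to 0.38) that was 0.017 without agomir replicate 3, 0.0070 without agomir NC replicate 1 and 0.19 without replicate 2 of either group.

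Of 17 genes tested among the retinoblastoma family, E2F factors and the DREAM and MuvB complexes, 0 were higher and 1 was lower, E2F1, an activator of S phase genes, and the median log2 fold change was 0.038. That median was -0.0042 without agomir NC replicate 2 and 0.072 without agomir NC replicate 3. For E2F1 the agomir NC libraries gave 1.91, 2.13 and 1.77 FPKM, and the agomir libraries 1.35, 1.23 and 1.74 FPKM. The groups did not overlap, but agomir replicate 3 and agomir NC replicate 3 were close. This gave a log2 fold change of -0.34 (SE 0.13), with unadjusted p = 0.0302 and adjusted p = 0.406 in limma. It did not pass without agomir replicate 1 or 2 or agomir NC replicate 1 or 2, with p up to 0.105.

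Cyclins are removed by ubiquitin ligases, and of 18 genes of cyclin degradation tested, 1 was higher and 1 lower, with a median log2 fold change of 0.017. That median was -0.024 without agomir replicate 2 and 0.055 without agomir replicate 1. UBE2C, the ubiquitin-conjugating enzyme of the anaphase-promoting complex, was measured at 16.2, 14.9 and 15.6 FPKM in agomir replicates 1 to 3, against 20.3, 16.2 and 17.3 FPKM in the controls. Agomir NC replicate 1 was the highest, and without it the log2 fold change was -0.10 and p was 0.169. The difference, agomir minus agomir NC, was -0.19 on the log2 scale (SE 0.081), with unadjusted p = 0.0420 and adjusted p = 0.438 in limma, and it also did not pass with no filter on low values, with no variance trend, or without agomir replicate 2 or 3 or agomir NC replicate 3. ANAPC1, a scaffold subunit of that complex, was at 7.37, 7.77 and 7.87 FPKM after the agomir and 7.31, 6.53 and 5.78 FPKM after agomir NC. Its groups did not overlap, with agomir replicate 1 and agomir NC replicate 1 close together. Its log2 fold change was 0.22 (SE 0.089), with unadjusted p = 0.0339 and adjusted p = 0.413 in limma, and it did not pass without agomir replicate 2 or 3 or agomir NC replicate 2 or 3, with p up to 0.127. Without agomir NC replicate 3 the ANAPC1 value was 0.14.

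Of the 20 proliferation genes of S and M phase, 1 was higher, AURKA, and 1 lower, PCNA. AURKA, a kinase of the spindle poles, was measured at 5.74, 6.68 and 6.23 FPKM in agomir replicates 1 to 3, against 4.95, 4.55 and 4.5996 FPKM in the controls. All agomir libraries were above all controls. In limma the log2 fold change came to 0.37 (SE 0.083), with unadjusted p = 0.00141 and adjusted p = 0.231. PCNA was at 11.6, 11.7 and 9.38 FPKM after the agomir and 13.5, 11.5 and 15.2 FPKM after agomir NC. Agomir NC replicate 2 lay among the agomir libraries and the other controls were above them. The log2 fold change was -0.28 (SE 0.11), with unadjusted p = 0.0333 and adjusted p = 0.412 in limma, and it did not pass with no filter on low values, with no variance trend, or without agomir replicate 3 or agomir NC replicate 1 or 3, with p up to 0.135. Without agomir replicate 3 the PCNA value was -0.18, and without agomir NC replicate 2 it was -0.38. MKI67, the gene of the Ki-67 protein of cycling cells, was measured at 10.1, 11.6 and 11.8 FPKM in agomir replicates 1 to 3, against 14.0, 11.9 and 9.37 FPKM in the controls. The controls spanned the agomir libraries, and the log2 fold change was -0.059 with all libraries and 0.071 without agomir NC replicate 1.

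**Figure D3:**
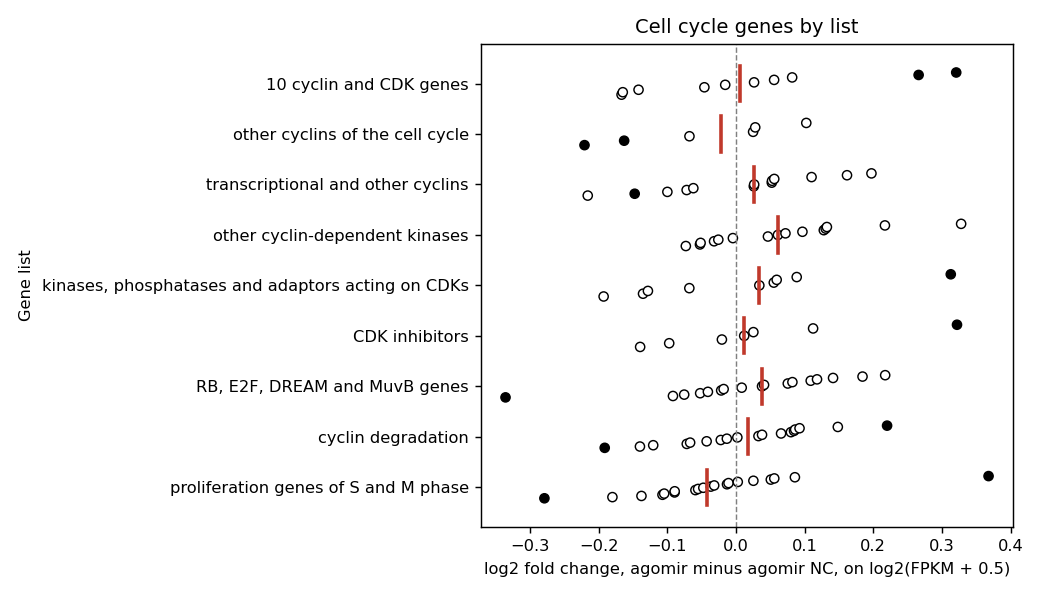
Difference between the groups in log2(FPKM + 0.5), agomir minus agomir NC, for each tested gene of the 10 cyclins and kinases and of 8 lists of other cell cycle genes; each circle is a gene, filled where the unadjusted limma p was under 0.05, and the red bar is the median of the list. The medians lie between -0.042 for the proliferation genes and 0.061 for the other cyclin-dependent kinases, and the filled circles lie on both sides of 0.

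The genes with the pattern nearest to CDK1 over the 6 libraries were COQ6, PPA1, MPLKIP, CCDC106 and FAM210A. Their root mean square difference from CDK1, on log2 values centred on each gene's mean, lay between 0.026 and 0.042, against a median of 0.16 over 11249 genes with a symbol. None of these 5 genes is in the cell cycle lists, which do not hold every gene with a part in the cycle. With 6 libraries and this many genes, near patterns are a description of these libraries.

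Some of the 10 genes overlap other genes in the RefSeq annotation of ARS-UCD2.0. CCNA2 overlaps EXOSC9, a gene of the RNA exosome, which measured 8.69, 10.01 and 9.74 FPKM after the agomir and 9.55, 8.73 and 9.54 FPKM after agomir NC. CCNE2 overlaps INTS8, a gene of the Integrator complex, which was between 17.6 and 19.8 FPKM in the 6 libraries, far above CCNE2. CCND1 overlaps LTO1, CDK1 overlaps a pseudogene and CDK6 overlaps 3 long non-coding RNAs. None of these had a row under its RefSeq symbol or synonyms, so their levels are not given. The strand setting of the quantification is not given in the sources used here, so reads that such pairs may share cannot be told apart.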

How the data were processed

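RNA from 6 libraries of bovine cells, 3 per group, was sequenced 48 h after transfection. The values used are FPKM as computed and deposited by the authors, 1 column per library. The submitters' processing notes name fastp, HISAT2 and StringTie and the build ARS-UCD1.2. The sources used here give no version, annotation or strand setting. A pseudocount of 0.5 was added, genes whose mean FPKM reached 0.5 were kept, and their log2 values were compared two-sided in limma 3.58.1 (R 4.3.3) with its variance trend and no block. P-values were adjusted by Benjamini-Hochberg over all 12422 genes tested. Exact permutation tests of FPKM used all 20 labelings. The code was tested on simulated data. Named genes were the 10 members, listed genes with an unadjusted p under 0.05, a few listed genes named in any case (CCND3, CCNB2, CDKN1A, CDKN1B, PCNA and MKI67), the leading and zero-level cell type markers, and the 5 nearest patterns for CDK1 and for CDK2, of which those for CDK2 are not reported here. Outside this rule, and after their values were seen, CCNG1, CCNO, CDK9, TYMS, TRAPPC4, STRADB and further cell type markers were named. EXOSC9, INTS8 and LTO1 were named because they overlap a member in the gene annotation, and ANAPC2 because its row was missing. Members and lists were chosen with earlier results of these data known. Alternatives were other pseudocounts, filters and scalings, no variance trend, array weights, a replicate block and each library left out in turn. The RefSeq gene table of ARS-UCD2.0, a different build, served only for names and overlaps and held 10 of 10 members. ANAPC2 had no row under that symbol.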

Additional observations from a re-analysis of the deposited data

How the results depend on the processing

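CCND1 and CDK6 passed an unadjusted p under 0.05 in limma in each of 15 alternatives, and their adjusted p lay between 0.238 and 0.548 and between 0.243 and 0.548. With a library left out, CCND1 ranged from 0.26 (without agomir NC replicate 3) to 0.37 (without agomir replicate 1). CDK6 ranged from 0.24 (without agomir replicate 2) to 0.30 (without agomir replicate 1). Of 150 log2 fold changes of the 10 members under alternatives, 142 kept their direction and their side of the adjusted threshold, and 8 turned in sign. Of 195 of other named genes, 4 turned.

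The 1 gene past the adjusted threshold became 0 with no filter, with no variance trend and with the replicate block (1604, 1249 and 1260 genes at an unadjusted p under 0.05 in limma), and 0 to 2 with a library left out. It was 0 without agomir replicate 1 or agomir NC replicate 2, and 2 (STRADB and TRAPPC4) without agomir NC replicate 3. Under the replicate block 2 members, CCND1 and CDK6, passed the unadjusted threshold and none the adjusted threshold. Deviations of same-numbered libraries correlated at -0.051, 0.053 and 0.039, so the numbers were not taken as pairs. Listed cell cycle genes past the unadjusted threshold numbered 10, and 4 (without agomir replicate 2) to 11 with a library left out, with 5 without agomir replicate 3. With all libraries kept they numbered 9 with no filter or no variance trend, 12 with the replicate block and 13 after quantile normalization. Median-ratio scaling gave 657 higher and 706 lower genes against 824 and 535 as deposited. The cause was not tested.

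CCND2 was -0.0013 after quantile normalization and CDKN1A -0.0045 after median-ratio scaling. Leaving out each library in turn (named in brackets) gave CDK2 values of -0.017 (agomir NC replicate 3) to 0.20 (agomir NC replicate 2) and CDK4 values of -0.058 (agomir NC replicate 2) to 0.047 (agomir NC replicate 3). CCNA2 ranged from -0.047 (agomir NC replicate 2) to 0.19 (agomir NC replicate 1), CCNB1 from -0.13 (agomir replicate 3) to 0.020 (agomir replicate 1) and CCND2 from -0.033 (agomir NC replicate 3) to 0.12 (agomir NC replicate 1). CDKN1A ranged from -0.0068 (agomir replicate 1) to 0.033 (agomir NC replicate 2) and MKI67 from -0.21 (agomir NC replicate 3) to 0.071 (agomir NC replicate 1).

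With 3 libraries a group and unknown depth, the differences of CDK1 (-0.14), CCNE1 (-0.16) and CCNE2 (-0.17) could not be told from the spread of these genes between libraries. The levels are of mRNA, and the amount and activity of the proteins were not analysed here.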
